A study of Rattus norvegicus with 15 samples.

Results

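The genes described here encode the collagen chains, other than the main chains of collagen VI, and the proteins that modify, fold, trim and cross-link them. The rule that defines them goes by gene symbol: the collagen alpha chains except Col6a1, Col6a2 and Col6a3, the lysyl oxidases Lox and Loxl1 to Loxl4, the prolyl hydroxylases, the lysyl hydroxylases Plod1 to Plod3, the galactosyltransferases Colgalt1 and Colgalt2, the chaperone Serpinh1, Crtap, Bmp1, the procollagen proteinases Adamts2, Adamts3 and Adamts14, and the enhancers Pcolce and Pcolce2. In all, 43 of the 11574 genes in the count table matched, 23 collagen chains and 20 enzymes and helpers, and 2 collagen VI chains in the table were left out by the rule. Among the genes the rule covers that were not in the table were Col1a2, Crtap, P3h2, Adamts3, Colgalt2 and Pcolce2. RNA was sequenced from 15 cultures of H9c2, a rat line of myoblasts from the embryonic heart ventricle, as 3 cultures in each of 5 groups. T0 cultures were collected in growth medium with 10% serum, the day after seeding and with no retinoic acid (RA). T7-RA and T14-RA were kept in medium with 1% serum for 7 and 14 days, and T7+RA and T14+RA were kept in the same medium for the same times with 1 µM RA, dissolved in dimethyl sulfoxide and added daily. Every later group therefore differs from T0 in serum as well as in time, and the share of each in a change from T0 cannot be told apart. RA, a derivative of vitamin A, acts through nuclear receptors that bind DNA. The sample titles name H9c2 for every culture, whereas the cell line entry of the labels reads H9c2 at T0 and counts up by 1 for each later sample, and all cultures were taken here as the single line H9c2. No T0 culture received RA, and whether the -RA cultures received the solvent is not given in the sources used here.

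Collagens are built as triple helices of alpha chains inside the endoplasmic reticulum. Prolyl and lysyl hydroxylases modify the chains as they are made, galactosyltransferases add sugars to hydroxylysine, and the chaperone Hsp47 (Serpinh1) holds the helix until it leaves the cell. Outside the cell, proteinases remove the propeptides of the fibrillar chains and lysyl oxidases start the cross-links that make fibrils insoluble, whereas type IV chains form the sheet-like network of basement membranes. In the heart, fibroblasts are the main source of fibrillar collagen, and the ratio of type III to type I collagen bears on how stiff the tissue is.

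Each library held 508397 to 1030820 counts, with a median of 666344. The 43 genes took 3.83% to 6.11% of these, and 35 of them had 100 counts or more over all libraries. In the labelled line, 6 of 7 listed myoblast and myotube markers were in the table and 5 were higher at T14 by the test described below. Their summed level ran from 187 to 244 CPM (counts scaled to a common library size) at T0, from 5780 to 6060 at T14-RA and from 2450 to 2850 at T14+RA. At T14 most of this sum came from Myh3, at 5056 CPM at T14-RA and 1874 at T14+RA. In the same groups Myog stood at 638 and 569.5 CPM, Ckm at 63.3 and 70.8, Des at 40.3 and 39.5 and Actn2 at 39.3 and 7.49. Myod1 was not called for T14, at -0.88 on the log2 scale (edgeR adjusted p = 0.00689). Of 4 smooth muscle genes 3 were lower at T14, all but Myh11. The summed level of the 4, most of it from Acta2, ran from 15200 to 16800 CPM at T0. It ran from 3330 to 3440 at T14-RA and from 3980 to 4790 at T14+RA. Of 6 fibroblast markers 3 were in the table, with a summed level of 248 to 336 CPM at T0, 334 to 360 at T14-RA and 263 to 344 at T14+RA, most of it from Thy1. Of these 3, Dcn and Lum had no count in any T0 library and reached 42.5 to 56.5 and 25.4 to 30.1 CPM at T14-RA. Both were called higher for T14, while Thy1 was called for neither T7 nor T14. The other listed fibroblast markers, Pdgfra, Tcf21 and Fap, were not in the table. Of 6 cardiomyocyte markers 1 was in the table, at 6.9 to 21 CPM at T0 and 10.9 to 21.6 CPM at T14 with or without RA, and there were 1 of 4 endothelial, 1 of 4 epithelial, 2 of 4 chondrocyte and 0 of 3 immune markers. The chondrocyte markers summed to 24.8 to 44 CPM at T0, 10.2 to 20.3 at T7-RA, 6.77 at the lowest and 13.2 at the median at T14-RA, 3.43 to 8.05 at T7+RA and 0 to 6.75 at T14+RA. Called lower for T14 was the chondrocyte marker Sox9. With RA, 2 of the 6 myotube markers (Myh3 and Actn2) and 2 of the 3 fibroblast markers (Thy1 and Lum) were called lower and Dcn higher. No smooth muscle gene was called for the RA change common to both days. At day 14 alone, from a model with a mean for each group, Acta2 was higher with RA by 0.39 on the log2 scale (edgeR adjusted p = 0.000935). Thus 5 of the 6 myotube markers, 3 of the 4 smooth muscle genes and 2 of the 3 fibroblast markers moved with culture time, as many of the collagen genes did. The myotube and fibroblast markers named moved with RA, and Acta2 did so at day 14 alone. The part of all these genes in the results was not tested. These are bulk libraries, so fewer cells of a type and less RNA per cell cannot be told apart.

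Per length, Col1a1 stood above every other gene of the set. This gene encodes the main chain of type I collagen, and it had the highest count of all 11574 genes in every one of the 15 libraries, at 1.84% to 3.50% of all counts. Levels of different genes are compared here only as CPM per kilobase of the gene length deposited with the counts, whose unit is not given and was read as bases. On that scale Col1a1 stood at 5132 ± 1150 (SD, n = 3) at T0, followed by the chaperone gene Serpinh1 at 2205 ± 140, the proteinase enhancer Pcolce at 1137 ± 41.2 and the type III chain Col3a1 at 636 ± 54.1. At T14-RA the same order no longer held, because Col3a1 at 1686 ± 39.2 CPM per kilobase lay above Pcolce at 1202 ± 87.7 and Serpinh1 at 1065 ± 42.1. At T0 the levels per length of the type V chains Col5a2, at 568 ± 50.2, and Col5a1, at 472 ± 91.4, overlapped between cultures. Among the other fibrillar chains, Col5a3, Col11a1 and Col27a1 stood at 32.7 ± 7.09, 15.2 ± 2.58 and 12.2 ± 4.51 CPM per kilobase at T0. Here Col11a1 and Col27a1 overlapped as well, and Col11a2, with counts of 2, 2 and 1, lay lower still.

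**Figure D1:**
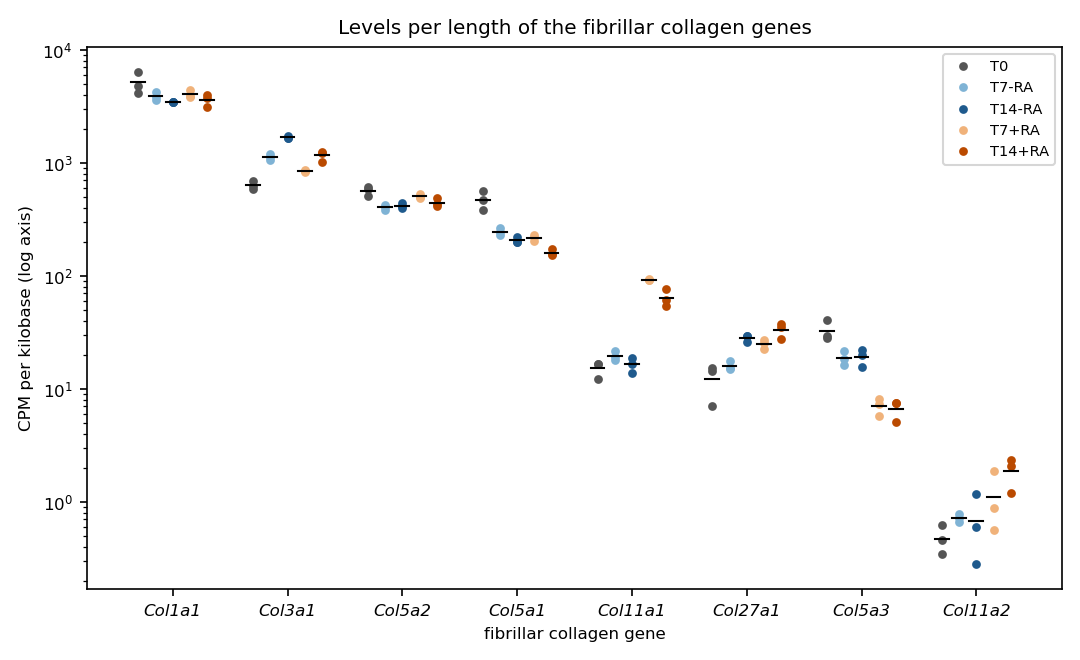
Level of the 8 fibrillar collagen genes as CPM per kilobase on a log axis, with 1 point per culture and a bar at the mean of 3 cultures for each group. Col1a1 leads in every group, Col3a1 climbs with time, and Col11a1 stands above Col5a3 and Col27a1 in every RA culture.

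The fibrillar mix shifted in composition. As a share of the summed level per length of the 8 fibrillar chains in the table, Col1a1 made up 74.5% ± 2.16 (SD, n = 3) at T0, 67.9% ± 1.94 at T7-RA and 59.3% ± 0.416 at T14-RA. Over the same groups the share of Col3a1 was 9.38% ± 0.985, 19.7% ± 2.02 and 28.9% ± 0.601. With RA, the share of Col3a1 was 14.8% ± 0.546 at T7+RA and 21.2% ± 0.346 at T14+RA, so that each RA group lay below the -RA group of its day. The share of Col11a1 was 0.281% ± 0.042 at T14-RA and 1.17% ± 0.187 at T14+RA. Shares of a sum move together by construction. The second type I chain, Col1a2, was not in the count table and so enters none of these shares.

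Changes were read from 3 terms of one model over all genes: T7 and T14, the changes from T0 by days 7 and 14, and RA, the change with RA common to both days. A gene was called at an edgeR quasi-likelihood adjusted p under 0.001 over all 11574 genes. For T14, 24 of the 43 genes were called, 4 higher and 20 lower, whereas 17.3% of all genes were called, 8.47% higher and 8.85% lower. For T7, 15 were called, 2 higher and 13 lower, against 8.73% of all genes, 4.29% higher and 4.44% lower. Of the 15, 14 were also called for T14 in the same direction. For RA, 15 were called, 8 higher and 7 lower, against 6.39% of all genes, 3.33% higher and 3.07% lower. The median log2 change of the 43 genes was -0.50 for T14, where the median of all genes was 0.05, and -0.21 for T7, where it was 0.02. With genes whose group held 3 counts or fewer in every library set to the bound that 3 counts allow, the T7 median was -0.42 and the others were the same. For RA the median was 0.09, beside -0.01 for all genes, with called genes nearly balanced between the directions. In all, 31 genes were called for at least 1 term and 12 for none.

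The calls held least with limma on quantile-normalized log2 counts, which kept 1 of the 15 for T7, that of P4ha3, 11 of the 24 for T14 and 9 of the 15 for RA. The RA calls it lost were those of Col3a1, Col4a1, P4ha3, Pcolce, Col8a1 and Col10a1, and DESeq2 lost P4ha3, Col8a1 and Col10a1. Col8a1 and Col10a1 were also lost for RA with limma-trend and P4ha3 with limma-voom. For T14 the calls lost were those of Col1a1, Col5a2, Col5a3, Col27a1, Col4a5, Col12a1, Col10a1, P3h1, Colgalt1, Lox, Loxl1, Loxl2 and Loxl4, and DESeq2 lost that of Col10a1.

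At least 10 counts in every library were held by 33 of the 43 genes (76.7%) and by 51.2% of all genes. Leaving out each library in turn gave 19 to 25 called genes for T14, 10 to 17 for T7 and 12 to 15 for RA. Among collagen chains, T14 called 3 of 23 higher and 9 lower, and among the enzymes and helpers 1 of 20 higher and 11 lower. For RA the split was 3 higher and 4 lower among chains and 5 higher and 3 lower among enzymes.

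**Figure D2:**
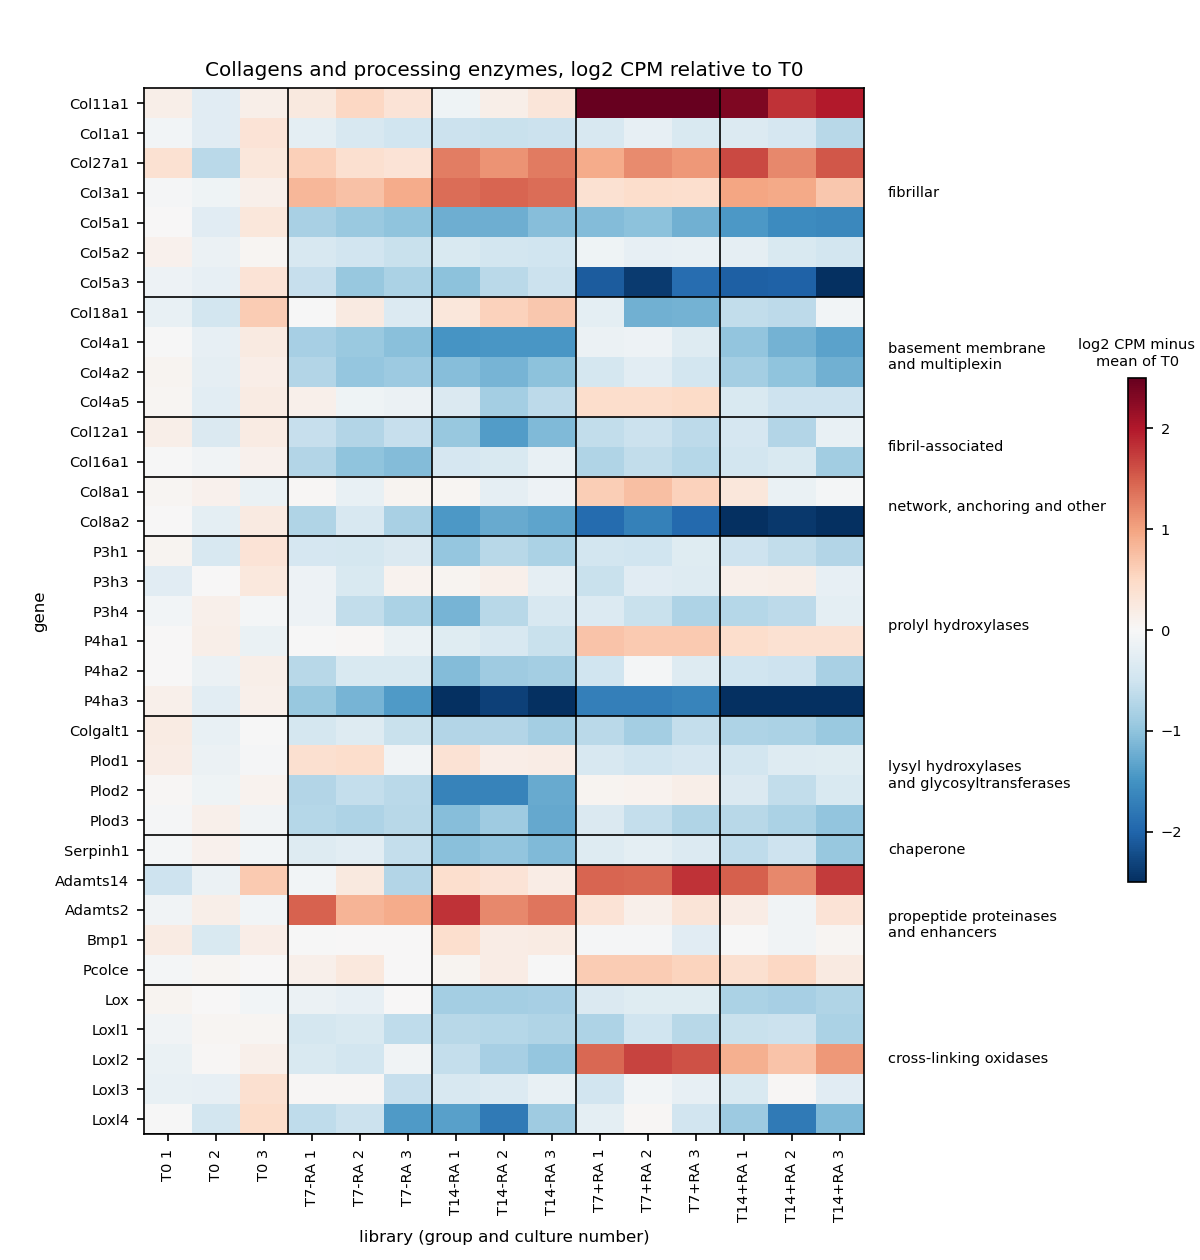
Log2 CPM of the 35 genes with 100 counts or more in each of the 15 libraries, minus the mean of the 3 T0 cultures, with rows grouped by the role of the gene and colours held at 2.5 beyond that size. Most rows turn blue with time, whereas Col11a1, Loxl2, Adamts14, P4ha1 and Pcolce turn red in the RA columns and P4ha3, Col8a2 and Col5a3 are the deepest blue there.

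Among the fibrillar chains, Col1a1 fell with time and Col3a1 rose. In CPM, Col1a1 stood at 28110, 24300 and 37280 in the T0 cultures, 24800, 22440 and 20950 at T7-RA and 20290, 20080 and 20180 at T14-RA. With RA it stood at 22420, 25540 and 22700 at day 7 and 23180, 21910 and 18180 at day 14. The 3 T14-RA cultures lay close together and below all T0 cultures, and the RA and -RA cultures overlapped at both days. Col1a1 fell for T14 by 0.56 on the log2 scale (SE 0.098, 1.48-fold, edgeR adjusted p = 7.17e-06). It lost this call without T0 3, where the change was -0.36 (edgeR adjusted p = 0.00213), and T0 3 held the highest value. Col3a1, which encodes the chain that forms type III collagen in extensible tissues, stood at 2978, 2799 and 3308 CPM at T0, 5367, 5031 and 5752 at T7-RA and 7920, 8248 and 7928 at T14-RA. With RA, Col3a1 stood at 3937, 4104 and 4038 CPM at day 7 and 5986, 5820 and 4828 at day 14. Each -RA group lay wholly above the one before it, and at each day all RA cultures lay below all -RA cultures. Col3a1 rose for T7 by 0.86 on the log2 scale (SE 0.092, 1.81-fold, edgeR adjusted p = 6.72e-11). For T14 it rose by 1.38 on the log2 scale (SE 0.094, 2.6-fold, edgeR adjusted p = 6.79e-19). With RA it fell by 0.48 on the log2 scale (SE 0.068, 1.39-fold, edgeR adjusted p = 1.22e-07). This RA call was lost with limma on quantile-normalized values, where the change was -0.16 (limma adjusted p = 0.551) and at day 14 alone 0.07 (limma adjusted p = 0.882). The ratio of Col3a1 to Col1a1 per length was accordingly 0.108 to 0.141 at T0, 0.477 to 0.502 at T14-RA and 0.316 to 0.325 at T14+RA, which do not overlap.

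The type V chains, which co-assemble with type I collagen and limit the width of its fibrils, were lower with time. Col5a1 stood at 2800, 2274 and 3362 CPM at T0, 1576, 1459 and 1373 at T7-RA and 1198, 1196 and 1324 at T14-RA. With RA its values were 1309, 1359 and 1210 CPM at day 7 and 1019, 935 and 906 at day 14. All later cultures lay below all T0 cultures, and the RA cultures lay below the -RA cultures of the same day. Col5a1 fell for T7 by 0.89 on the log2 scale (SE 0.099, 1.85-fold, edgeR adjusted p = 2.26e-10) and for T14 by 1.23 on the log2 scale (SE 0.099, 2.34-fold, edgeR adjusted p = 7.12e-16). Its RA term, -0.28 (SE 0.077, edgeR adjusted p = 0.00716), missed the threshold. Col5a2, which shares the chromosome band 9q22 with Col3a1, stood at 2715, 2289 and 2627 CPM at T0, 1912, 1828 and 1724 at T7-RA and 1959, 1856 and 1783 at T14-RA. In the RA cultures Col5a2 stood at 2359, 2195 and 2228 CPM at day 7 and 2181, 1947 and 1849 at day 14. Unlike Col3a1, Col5a2 lay below its T0 range in every -RA culture. For T14, Col5a2 fell by 0.50 on the log2 scale (SE 0.092, 1.41-fold, edgeR adjusted p = 1.16e-05). It lost this call without T0 1, where the change was -0.43 (edgeR adjusted p = 0.00124).

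Col5a3 and Col11a1 carried the largest RA changes of the fibrillar chains, in opposite directions. Col11a1 encodes a minor fibrillar chain best known from cartilage, where it sits in the core of thin fibrils. It stood at 128, 93.8 and 128 CPM at T0, 137, 167 and 148 at T7-RA and 107, 128 and 144 at T14-RA. In the RA cultures it stood at 701, 708 and 719.9 CPM at day 7 and 590.4, 413 and 468 at day 14. Every RA culture lay above every culture without RA. Col11a1 rose with RA by 2.12 on the log2 scale (SE 0.096, 4.35-fold, edgeR adjusted p = 1.23e-26), and its level at T14-RA overlapped that at T0. Col5a3, the least abundant type V chain, stood at 178, 169 and 247 CPM at T0, 130, 99.5 and 112 at T7-RA and 94.9, 120.4 and 134 at T14-RA. With RA, Col5a3 stood at 44.2, 34.9 and 49.7 CPM at day 7 and 45.3, 45.6 and 30.8 at day 14. All 6 RA cultures lay below all 9 others. Col5a3 fell with RA by 1.44 on the log2 scale (SE 0.14, 2.72-fold, edgeR adjusted p = 2.26e-12) and for T14 by 0.78 on the log2 scale (SE 0.15, 1.71-fold, edgeR adjusted p = 4.79e-05). It lost the T14 call without any one of T0 3 or T14-RA 1, where the changes were -0.66 to -0.59 (edgeR adjusted p up to 0.00355).

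The upstream window of Col11a1 is shown because this gene had the largest called rise with RA. It is the 250 bases before the RefSeq start on the GRCr8 assembly, at chr2:204508886-204509135 on the plus strand and in chromosome band 2q41 of the annotation deposited with the counts. Capitals mark ATTGG, the reverse complement of the CCAAT box.
Col11a1: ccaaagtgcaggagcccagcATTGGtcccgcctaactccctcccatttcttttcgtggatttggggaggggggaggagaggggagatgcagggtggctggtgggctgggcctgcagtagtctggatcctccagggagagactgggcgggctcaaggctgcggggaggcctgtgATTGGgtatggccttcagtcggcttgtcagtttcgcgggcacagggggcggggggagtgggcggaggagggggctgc
The 2 matches lie 77 to 73 and 230 to 226 bases before the start, and none of the other motifs searched, given further on, occurs in this window.

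The remaining fibrillar chains were Col27a1 and Col11a2. Col27a1, a fibrillar chain of cartilage and other tissues, stood at 68.2 ± 25.1 CPM (SD, n = 3) at T0, 89.3 ± 8.59 at T7-RA and 157 ± 9.89 at T14-RA. All T14-RA cultures lay above all T0 cultures, and Col27a1 rose for T14 by 1.09 on the log2 scale (SE 0.18, 2.13-fold, edgeR adjusted p = 1.42e-06). Its level with RA was 139 ± 12.6 CPM at day 7 and 186 ± 29.3 at day 14, and the RA term, 0.42 (SE 0.12, edgeR adjusted p = 0.00648), missed the threshold. Without T14+RA 2 it passed, at 0.51 (edgeR adjusted p = 0.000719). Col11a2, the partner chain of Col11a1 in cartilage, had counts of 2, 2 and 1 at T0, 3, 4 and 1 at T14-RA and 13, 9 and 4 at T14+RA. It was not called for any term.

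Of the 4 type IV chains of the basement membrane in the table, Col4a1 and Col4a2 fell for T7 and T14, Col4a5 fell for T14 alone and Col4a4, with few counts, was called for neither. Col4a1 and Col4a2 encode the chains that make up most type IV collagen, and in vertebrates they lie head to head with a common promoter region. Both sit in band 16q12.5 of the deposited annotation. The 76 bases that separate their RefSeq starts are shown because both genes fell for T7 and T14. They lie at chr16:84885521-84885596 on GRCr8, are written on the plus strand, and hold none of the motifs searched, so they carry no capitals. Beyond these 76 bases, the 250 bases before each start hold a CCAAT match. It lies 170 to 166 bases before the start of Col4a1 and 105 to 101 before that of Col4a2.
Col4a2 to Col4a1: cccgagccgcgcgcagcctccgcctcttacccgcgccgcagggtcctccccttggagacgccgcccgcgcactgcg
Col4a1 stood at 2644, 2326 and 3107 CPM at T0, 1510, 1402 and 1293 at T7-RA and 959.7, 971 and 970.3 at T14-RA. Under RA its level was 2400, 2450 and 2130 CPM at day 7 and 1347, 1182 and 1062 at day 14. The -RA groups stepped down without overlap, and at both days every RA culture lay above every -RA culture, with T7+RA 1 and 2 inside the T0 range. Col4a1 fell for T7 by 0.83 on the log2 scale (SE 0.10, 1.78-fold, edgeR adjusted p = 5.87e-09) and for T14 by 1.58 on the log2 scale (SE 0.10, 3-fold, edgeR adjusted p = 2.43e-19). With RA it rose by 0.53 on the log2 scale (SE 0.080, 1.44-fold, edgeR adjusted p = 6.47e-07). From a model with a mean for each group, the change with RA was 0.73 at day 7 (SE 0.094, edgeR adjusted p = 9.29e-09). At day 14 it was 0.31 (SE 0.097, edgeR adjusted p = 0.0232) and missed the threshold.

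Col4a2 stood at 1457, 1184 and 1568 CPM at T0, 831, 708 and 736 at T7-RA and 664, 618 and 686 at T14-RA. In the RA cultures Col4a2 stood at 1031, 1159 and 1011 CPM at day 7 and 773, 692 and 607 at day 14. The T7+RA cultures lay between those of T0 and T7-RA, and at day 14 the RA and -RA cultures overlapped. Col4a2 fell for T7 by 0.78 on the log2 scale (SE 0.11, 1.72-fold, edgeR adjusted p = 6.63e-08) and for T14 by 1.20 on the log2 scale (SE 0.11, 2.3-fold, edgeR adjusted p = 3.12e-14). Its common RA term was 0.29 (SE 0.083, edgeR adjusted p = 0.0091) and missed the threshold. Taken at day 7 alone, from a model with a mean for each group, Col4a2 was higher with RA by 0.49 on the log2 scale (SE 0.10, 1.41-fold, edgeR adjusted p = 0.000254). It lost the day 7 call without any one of T7-RA 2 or 3 or T7+RA 1 or 2, where the changes were 0.43 to 0.52 (edgeR adjusted p up to 0.0103), and also with limma-trend, at 0.49 (limma adjusted p = 0.00229), and on quantile-normalized values, at 0.40 (limma adjusted p = 0.23).

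Col4a5, an X-linked chain of the kidney and other basement membranes, stood at 433 ± 69.2 CPM (SD, n = 3) at T0, 418 ± 44.7 at T7-RA and 281 ± 49.7 at T14-RA, and fell for T14 by 0.71 on the log2 scale (SE 0.12, 1.64-fold, edgeR adjusted p = 2.36e-06). In cultures with RA the level was 592 ± 9.87 CPM at day 7 and 308 ± 17.3 at day 14. All T7+RA cultures lay above all T7-RA cultures, and at day 14 they overlapped. At day 7 alone Col4a5 was higher with RA by 0.50 on the log2 scale (SE 0.11, 1.41-fold, edgeR adjusted p = 0.000845). It lost the day 7 call without any one of T0 1, T7-RA 2 or 3, T14-RA 3, T7+RA 1, 2 or 3 or T14+RA 1, where the changes were 0.46 to 0.51 (edgeR adjusted p up to 0.0127). The day 7 call of Col4a5 was also lost with DESeq2, all 3 limma fits, plain library sizes and a minimum of 10 counts in every library, with adjusted p of 0.00103 to 0.118 by these tools. Of the multiplexins, which join basement membranes to the matrix, Col18a1 stood at 28.8 ± 4.24 CPM at T14-RA and 13.6 ± 3.96 at T14+RA, with an RA term of -1.03 (SE 0.27, edgeR adjusted p = 0.00357) that missed the threshold.

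Among the fibril-associated chains, which coat fibrils rather than form them, Col12a1 and Col16a1 had enough counts to be read. Col12a1 stood at 1036, 726 and 1084 CPM at T0, 624, 558 and 624 at T7-RA and 484, 354 and 435 at T14-RA. The RA cultures held 607, 639 and 596 CPM at day 7 and 696, 563 and 818 at day 14. The -RA groups stepped down without overlap, and with RA the cultures overlapped those without at day 7 and lay above them at day 14. Col12a1 fell for T14 by 0.97 on the log2 scale (SE 0.18, 1.95-fold, edgeR adjusted p = 0.000492). It lost this call without any one of T0 1 or 3, T7-RA 2, T14-RA 1 or 3 or T14+RA 2, where the changes were -0.97 to -0.86 (edgeR adjusted p up to 0.00451). At day 14 alone it was higher with RA by 0.69 on the log2 scale (SE 0.13, 1.62-fold, edgeR adjusted p = 0.000325). Col12a1 lost the day 14 call without any one of T14-RA 2 or 3 or T14+RA 1 or 3, where the changes were 0.57 to 0.71 (edgeR adjusted p up to 0.00312), and on quantile-normalized values, at 0.58 (limma adjusted p = 0.1). With plain library sizes its T14 call was lost, at -0.86 (edgeR adjusted p = 0.00123). Col16a1 stood at 269.6 ± 18.2 CPM (SD, n = 3) at T0, 139 ± 18.3 at T7-RA and 214 ± 18.8 at T14-RA, and fell for T7 by 0.82 on the log2 scale (SE 0.13, 1.77-fold, edgeR adjusted p = 2.11e-06). All T14-RA cultures lay above all T7-RA cultures, and the T14 term, -0.44 (SE 0.13, edgeR adjusted p = 0.00499), missed the threshold.

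The short-chain network collagens split under RA. Col8a1 and Col8a2 encode the chains of type VIII collagen, a network former of vessel walls and of the membrane under the corneal endothelium. Col8a1 stood at 486, 503 and 417 CPM at T0, 474, 411 and 487 at T7-RA and 483, 400.3 and 428 at T14-RA. With RA, Col8a1 stood at 713, 787 and 699 CPM at day 7 and 566, 418 and 451 at day 14. The T7+RA cultures lay above all others, and those of T14+RA overlapped T14-RA. Col8a1 rose with RA by 0.42 on the log2 scale (SE 0.091, 1.34-fold, edgeR adjusted p = 0.000484). It lost this call without any one of T7-RA 1, 2 or 3, T14-RA 2, T7+RA 1, 2 or 3 or T14+RA 1, where the changes were 0.35 to 0.43 (edgeR adjusted p up to 0.00423). Col8a2 stood at 243, 203 and 281 CPM at T0, 142, 181 and 135 at T7-RA and 86.5, 99.2 and 94.8 at T14-RA. With RA, Col8a2 stood at 61.3, 72.5 and 60 CPM at day 7 and 40.5, 42.4 and 36.3 at day 14. It fell in steps with time, and at each day all RA cultures lay below all -RA cultures. Col8a2 fell for T14 by 1.37 on the log2 scale (SE 0.14, 2.59-fold, edgeR adjusted p = 8.96e-12) and with RA by 1.23 on the log2 scale (SE 0.13, 2.34-fold, edgeR adjusted p = 1.42e-11).

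Col10a1, known as the marker of hypertrophic cartilage, had few counts and the largest called rise for T14. Its counts were 5, 0 and 0 at T0, 4, 2 and 7 at T7-RA and 20, 14 and 13 at T14-RA. With RA the counts were 1, 4 and 0 at day 7 and 6, 2 and 1 at day 14. The T14-RA libraries alone stood apart, above all 12 others. Col10a1 rose for T14 by 2.88 on the log2 scale (SE 0.63, 7.35-fold, edgeR adjusted p = 0.000214). It lost this call without any one of T0 2 or 3 or T14-RA 1 or 2, where the changes were 2.39 to 2.81 (edgeR adjusted p up to 0.00195), and without T0 1 the change became 6.93 because no T0 count was left. With RA, Col10a1 fell by 2.10 on the log2 scale (SE 0.46, 4.28-fold, edgeR adjusted p = 0.000475). It lost the RA call without any one of T7-RA 3, T14-RA 1, 2 or 3, T7+RA 3 or T14+RA 1, 2 or 3, where the changes were -2.22 to -1.89 (edgeR adjusted p up to 0.0037).

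The prolyl hydroxylases prepare proline residues for a stable helix. The alpha subunits of prolyl 4-hydroxylase, P4ha1, P4ha2 and P4ha3, carry its active site. P4ha1 stood at 281, 308 and 249 CPM at T0, 277, 285 and 248 at T7-RA and 225, 209 and 189.7 at T14-RA. With RA its values were 458, 439 and 439 CPM at day 7 and 376, 363 and 363 at day 14. All RA cultures lay above all others, and P4ha1 rose with RA by 0.77 on the log2 scale (SE 0.082, 1.7-fold, edgeR adjusted p = 3.93e-11). P4ha3 stood at 352, 270.2 and 354 CPM at T0, 167, 142 and 119 at T7-RA and 44.4, 62 and 50.8 at T14-RA. With RA, P4ha3 stood at 96.9, 96.7 and 101 CPM at day 7 and 36.7, 34.6 and 25.4 at day 14. The groups stepped down with time with no overlap, and RA cultures lay below -RA cultures at each day. P4ha3 had the largest fall with time of the set, by 1.17 on the log2 scale (SE 0.13, 2.25-fold, edgeR adjusted p = 3.42e-10) for T7 and by 2.68 on the log2 scale (SE 0.15, 6.42-fold, edgeR adjusted p = 2.41e-22) for T14. With RA it fell by 0.58 on the log2 scale (SE 0.13, 1.49-fold, edgeR adjusted p = 0.000766). It lost the RA call without any one of T7-RA 1 or 2, T14-RA 2 or 3, T7+RA 1, 2 or 3 or T14+RA 1, 2 or 3, where the changes were -0.60 to -0.50 (edgeR adjusted p up to 0.00998).

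P4ha2 stood at 178 ± 18.8 CPM (SD, n = 3) at T0 and 90.7 ± 7.92 at T14-RA, and fell for T14 by 0.93 on the log2 scale (SE 0.15, 1.91-fold, edgeR adjusted p = 5.1e-07). The prolyl 3-hydroxylase P3h1, which acts on single prolines of type I collagen, stood at 179.5 ± 45.7 CPM at T0 and 98.9 ± 9.61 at T14-RA. P3h1 fell for T14 by 0.80 on the log2 scale (SE 0.15, 1.74-fold, edgeR adjusted p = 1.4e-05). It lost this call without T0 3, where the change was -0.63 (edgeR adjusted p = 0.0013). P3h3 and its partner P3h4 were called for no term, with P3h4 at 111 ± 8.26 CPM at T0 and 66.1 ± 17.5 at T14-RA (T14 term -0.69 (SE 0.18, edgeR adjusted p = 0.0021)). Without T7-RA 1 the P3h4 term passed, at -0.76 (edgeR adjusted p = 0.000675).

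The lysyl hydroxylases differ in where they act: Plod1 modifies lysines of the helix, Plod2 those of the end peptides that go on to form the most stable cross-links, and Plod3 also adds sugars. Plod2 stood at 304, 276 and 314 CPM at T0, 179, 196 and 186 at T7-RA and 91.3, 92.1 and 122 at T14-RA. With RA it stood at 314, 317 and 327 CPM at day 7 and 230.5, 193 and 228 at day 14. Without RA the groups stepped down with no overlap, and at each day all RA cultures lay above all -RA cultures. Plod2 fell for T7 by 0.75 on the log2 scale (SE 0.12, 1.68-fold, edgeR adjusted p = 2.3e-06) and for T14 by 1.44 on the log2 scale (SE 0.13, 2.71-fold, edgeR adjusted p = 2.45e-14). With RA it rose by 0.92 on the log2 scale (SE 0.095, 1.89-fold, edgeR adjusted p = 1.34e-11). Plod1 stood at 167, 131 and 142 CPM at T0, 193, 200.2 and 138 at T7-RA and 189, 165 and 168 at T14-RA. With RA, Plod1 stood at 109.8, 102 and 108 CPM at day 7 and 106, 116 and 118 at day 14. All 6 RA cultures lay below all 9 others, and Plod1 fell with RA by 0.69 on the log2 scale (SE 0.11, 1.61-fold, edgeR adjusted p = 7.79e-07). Plod3 stood at 355 ± 27.2 CPM (SD, n = 3) at T0 and 167 ± 23.7 at T14-RA, and fell for T14 by 1.06 on the log2 scale (SE 0.12, 2.08-fold, edgeR adjusted p = 1.05e-10). Colgalt1, which adds galactose to hydroxylysine, stood at 327 ± 43 CPM at T0 and 189 ± 8.31 at T14-RA, and fell for T14 by 0.73 on the log2 scale (SE 0.12, 1.66-fold, edgeR adjusted p = 1.03e-06).

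The upstream windows of Plod2 and Plod1 are shown side by side because these related genes moved in opposite directions with RA. Each is the 250 bases before the RefSeq start on GRCr8, written in the direction of the gene, at chr8:101964068-101964317 on the plus strand for Plod2 and at chr5:163650738-163650987 on the minus strand for Plod1. Capitals in Plod1 mark TGACCT, the reverse complement of AGGTCA, a half-site bound by RA receptors and other nuclear receptors, and Plod2 holds none of the motifs searched.
Plod2: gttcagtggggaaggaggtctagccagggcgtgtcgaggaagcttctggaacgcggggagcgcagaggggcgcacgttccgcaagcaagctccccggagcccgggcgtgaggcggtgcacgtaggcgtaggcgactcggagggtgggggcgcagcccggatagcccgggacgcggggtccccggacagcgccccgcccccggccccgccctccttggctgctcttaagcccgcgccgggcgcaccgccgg
Plod1: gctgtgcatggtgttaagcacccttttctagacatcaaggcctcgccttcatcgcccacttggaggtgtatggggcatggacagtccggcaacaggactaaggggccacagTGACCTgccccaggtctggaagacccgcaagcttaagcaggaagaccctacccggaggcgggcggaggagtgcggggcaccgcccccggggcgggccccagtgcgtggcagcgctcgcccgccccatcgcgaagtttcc
The match in Plod1 lies 139 to 134 bases before the start, and it is a match of letters only.

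Serpinh1, the gene of the collagen chaperone Hsp47, stood at 4387, 4854 and 4331 CPM at T0, 3603, 3768 and 2979 at T7-RA and 2182, 2272 and 2100 at T14-RA. In the RA cultures it stood at 3615, 3818 and 3553 CPM at day 7 and 2919, 3170 and 2348 at day 14. The -RA groups stepped down without overlap, and the RA cultures overlapped those without at day 7 and lay above them at day 14. For T14, Serpinh1 fell by 0.98 on the log2 scale (SE 0.098, 1.97-fold, edgeR adjusted p = 1.81e-12). At day 14 alone the change with RA was 0.37 (SE 0.091, edgeR adjusted p = 0.003) and missed the threshold. Without T14+RA 3, the lowest of its group, it passed at 0.48 (edgeR adjusted p = 5.79e-05).

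Among the proteinases that trim procollagen, Adamts14 and Adamts2 moved apart. Both cut the amino-terminal propeptide. Adamts14 stood at 12.4, 16.9 and 31.4 CPM at T0, 17.9, 22.9 and 10.2 at T7-RA and 26.4, 24.8 and 22 at T14-RA. Under RA its level was 57, 56.4 and 73.7 CPM at day 7 and 58.8, 47.1 and 70.7 at day 14. All 6 RA cultures lay above all 9 others, and Adamts14 rose with RA by 1.53 on the log2 scale (SE 0.20, 2.89-fold, edgeR adjusted p = 7.63e-09). Adamts2 stood at 33.1, 39.4 and 33.5 CPM at T0, 103, 65.8 and 69.7 at T7-RA and 131, 85 and 93.1 at T14-RA. With RA, Adamts2 stood at 45.6, 38.9 and 44.6 CPM at day 7 and 40.5, 33 and 45.3 at day 14. The -RA cultures of both days lay above all T0 cultures, whereas the RA cultures lay near the T0 range. Adamts2 rose for T7 by 1.28 on the log2 scale (SE 0.23, 2.42-fold, edgeR adjusted p = 1.53e-05) and for T14 by 1.48 on the log2 scale (SE 0.22, 2.8-fold, edgeR adjusted p = 2.05e-07). With RA it fell by 1.16 on the log2 scale (SE 0.15, 2.23-fold, edgeR adjusted p = 1.72e-08). Bmp1, the proteinase of the carboxy-terminal propeptide, was called for no term, at 250.1 ± 52.6 CPM (SD, n = 3) at T0 and 298 ± 27.2 at T14-RA. Pcolce, which speeds up Bmp1, stood at 1868 ± 67.7 CPM at T0, 2048 ± 179 at T7-RA and 2854 ± 91.5 at T7+RA, and at 1976 ± 144 at T14-RA and 2437 ± 243 at T14+RA. It rose with RA by 0.39 on the log2 scale (SE 0.070, 1.31-fold, edgeR adjusted p = 1.77e-05), while the change at day 14 alone, 0.30 (SE 0.088, edgeR adjusted p = 0.0125), missed the threshold.

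The lysyl oxidases, which oxidise lysines for cross-linking, included the second largest of the called rises with RA. Loxl2, which also acts on type IV collagen, stood at 209.7, 238 and 258 CPM at T0, 180.1, 171 and 221 at T7-RA and 155, 131 and 118 at T14-RA. In cultures with RA the level was 637, 758 and 715 CPM at day 7 and 434, 387 and 498 at day 14. All 6 RA cultures lay above all 9 others. Loxl2 rose with RA by 1.80 on the log2 scale (SE 0.092, 3.47-fold, edgeR adjusted p = 4.33e-24) and fell for T14 by 0.85 on the log2 scale (SE 0.13, 1.8-fold, edgeR adjusted p = 4.3e-07). Lox, the founding enzyme of the family, stood at 842, 807 and 763 CPM at T0, 720.5, 698 and 805 at T7-RA and 444, 446 and 450.4 at T14-RA. With RA, Lox stood at 627, 647 and 653 CPM at day 7 and 466, 449.5 and 477 at day 14. The T14-RA cultures lay below all T0 and T7-RA cultures, and at day 14 the RA and -RA cultures overlapped. Lox fell for T14 by 0.78 on the log2 scale (SE 0.10, 1.72-fold, edgeR adjusted p = 3.44e-09).

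Loxl4 stood at 109, 78.8 and 151 CPM at T0, 69.2, 73.9 and 39.2 at T7-RA and 40.8, 30.1 and 57.6 at T14-RA. The RA cultures held 91.2, 111 and 77.1 CPM at day 7 and 56.9, 29.9 and 49 at day 14. All T14-RA cultures lay below all T0 cultures, and those of T7-RA and T14-RA overlapped. Loxl4 fell for T14 by 1.54 on the log2 scale (SE 0.24, 2.92-fold, edgeR adjusted p = 3.89e-06). Loxl1, needed for elastic fibres, fell for T14 by 0.65 on the log2 scale (SE 0.11, 1.57-fold, edgeR adjusted p = 3.85e-06), from 435 ± 24.5 CPM (SD, n = 3) at T0 to 264 ± 5.52 at T14-RA. Loxl3 was called for no term, at 175 ± 44.5 CPM at T0 and 138 ± 11 at T14-RA.

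Time and RA combined in several ways. Of the 43 genes, 3 were lower for T14 and higher with RA (Col4a1, Plod2 and Loxl2), 3 were higher for T14 and lower with RA (Col3a1, Adamts2 and Col10a1), and 3 were lower for both (Col5a3, Col8a2 and P4ha3). Of all genes these combinations held 0.752%, 1.42% and 0.415%. None of the 43 was higher for both, as 0.631% of all genes were. RA alone called 6, of which 5 were higher (Col11a1, Adamts14, P4ha1, Col8a1 and Pcolce) and 1 was lower (Plod1), against 1.94% and 1.24% of all genes. T14 without RA called 15, of which 14 were lower and Col27a1 was higher, against 7.68% and 6.42% of all genes.

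**Figure D3:**
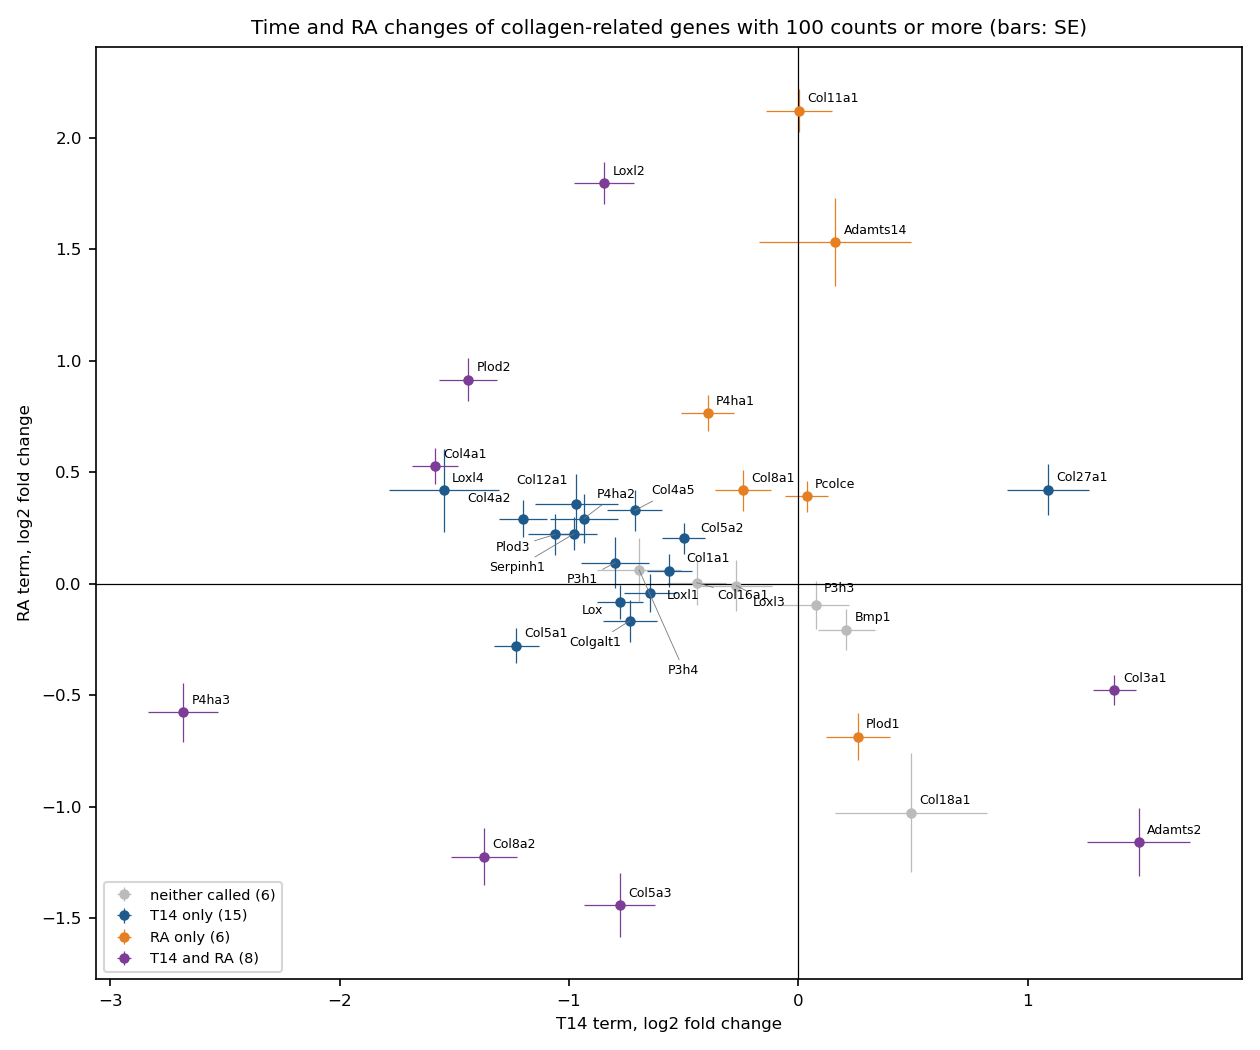
RA term against T14 term, as log2 fold changes with bars of 1 SE, for the 35 genes with 100 counts or more, coloured by the terms for which each was called. Of the 15 genes called for T14 only, 14 lie to the left of zero and Col27a1 to the right, and Col11a1 and Loxl2 lie highest.

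Several of these RA changes fell on related genes in opposite directions. The 5 pairs below were picked after the values were seen, so their ratios per length are given as a description with no test. The ratio of Col11a1 to Col5a3 was 0.835 to 0.889 in the T14-RA cultures and 7.15 to 12 in the T14+RA cultures. For Plod2 over Plod1 it was 0.389 to 0.584 and 1.33 to 1.75 in the same groups, and 1.46 to 1.77 at T0. Thus Plod1 exceeded Plod2 per length only in the T14-RA cultures and in part of T7-RA, where the ratio was 0.744 to 1.08. For P4ha1 over P4ha3 the ratio was 0.551 to 0.891 at T0, 2.64 to 3.96 at T14-RA and 8.03 to 11.2 at T14+RA. Adamts14 over Adamts2 gave 0.259 to 0.374 at T14-RA and 1.83 to 2 at T14+RA, a reversal of which gene led. Col8a1 over Col8a2 gave 3.91 to 5.41 at T14-RA and 9.54 to 13.5 at T14+RA. In all 5 pairs the T14+RA cultures lay above all T14-RA cultures.

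**Figure D4:**
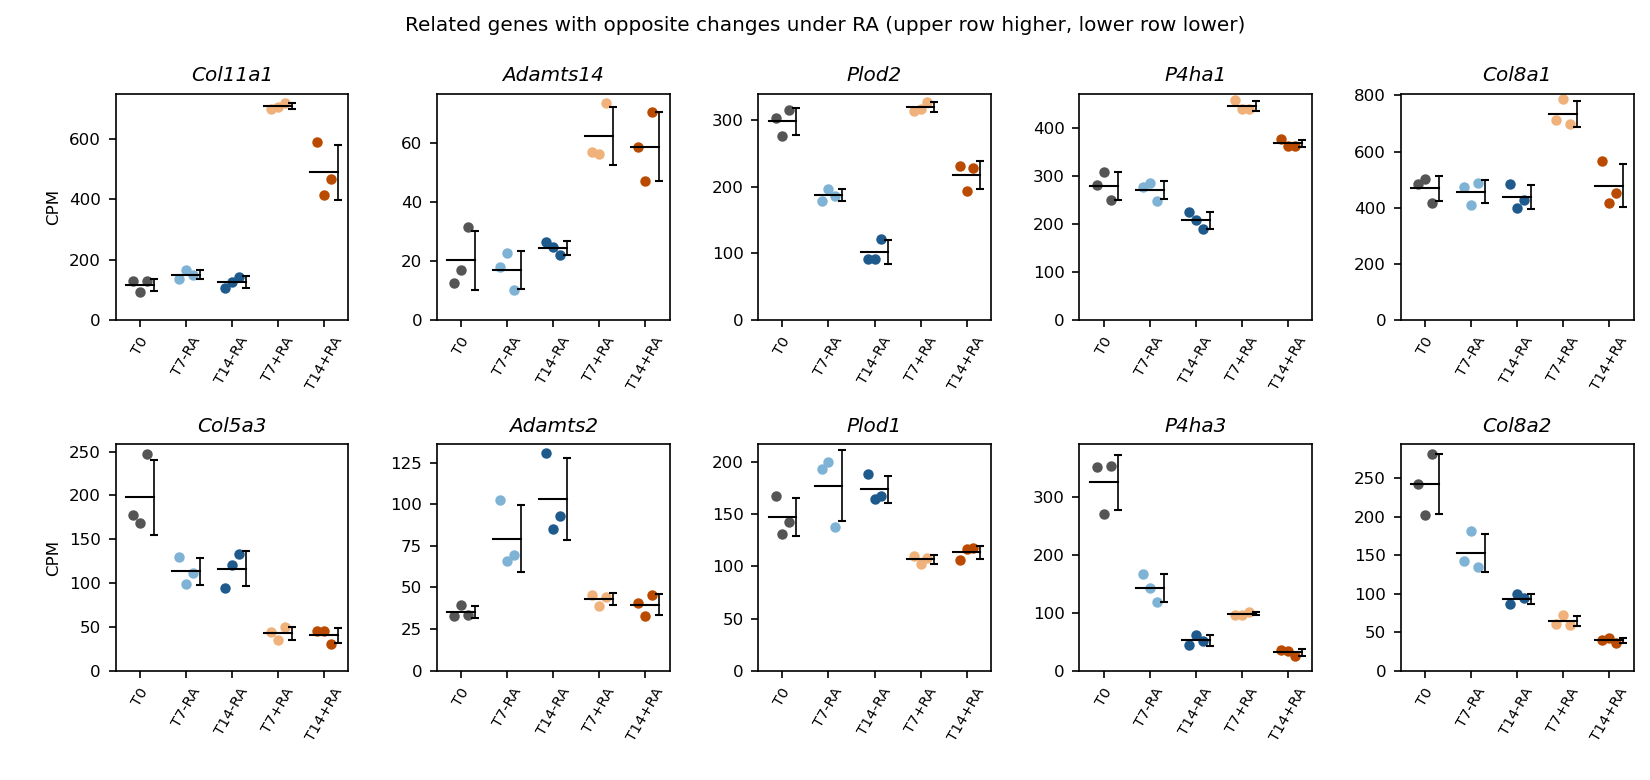
CPM of 5 pairs of related genes, with 1 point per culture, a bar at the mean and an error bar of 1 SD for the 3 cultures of each group. Genes in the upper row are higher and genes in the lower row lower with RA, and for Col11a1, Adamts14, P4ha1, Col5a3, Plod1 and Col8a2 the 6 RA cultures do not overlap the other 9.

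The RA change did not pass a test of difference between the days for any of the 43 genes. The change at day 14 minus that at day 7 was tested at an adjusted p under 0.05, a threshold passed by 0.743% of all genes and by 0 of the 43, with edgeR, limma and DESeq2 alike. At an unadjusted p under 0.05 there were 8 by edgeR, 8 by limma-trend, 10 by limma-voom, 5 by limma on quantile-normalized values and 6 by DESeq2, and 8.35% of all genes by edgeR. Closest were Col8a1, with a difference of -0.55 (SE 0.15, edgeR adjusted p = 0.0823), and Col12a1, with 0.66 (SE 0.19, edgeR adjusted p = 0.11). Without T0 2, both passed, at -0.54 (edgeR adjusted p = 0.0266) and 0.66 (edgeR adjusted p = 0.00323). Without T0 3, both passed as well, at -0.55 (edgeR adjusted p = 0.0463) and 0.66 (edgeR adjusted p = 0.0496). Col8a1 also passed without T14+RA 1, at -0.70 (edgeR adjusted p = 0.0178), and Col12a1 without T14+RA 2, at 0.78 (edgeR adjusted p = 0.0081). Taken day by day, 14 genes were called with RA at day 7, 10 higher and 4 lower, against 3.17% of all genes, 1.87% higher and 1.3% lower. At day 14, 11 were called, 6 higher and 5 lower, against 4.81%, 2.46% higher and 2.35% lower. Between T7-RA and T14-RA, 9 genes were called, 2 higher and 7 lower, against 2.95% of all genes, 1.87% higher and 1.09% lower.

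In the second week without RA, the falls were largest for P4ha3, by 1.48 on the log2 scale (SE 0.18, 2.78-fold, edgeR adjusted p = 1.84e-09), and Plod2, by 0.89 on the log2 scale (SE 0.14, 1.85-fold, edgeR adjusted p = 2.77e-06). Lox fell by 0.73 on the log2 scale (SE 0.097, 1.66-fold, edgeR adjusted p = 3.83e-08) and Serpinh1 by 0.66 on the log2 scale (SE 0.091, 1.58-fold, edgeR adjusted p = 1.19e-07). Col3a1 rose further, by 0.58 on the log2 scale (SE 0.083, 1.49-fold, edgeR adjusted p = 3e-07). On quantile-normalized values this Col3a1 call was lost, at 0.28 (limma adjusted p = 0.502). The calls of Plod2, Lox and Serpinh1 were lost there too, at changes of -0.91, -0.72 and -0.73 (limma adjusted p of 0.00292 to 0.0069). Lox, which had not been called for T7, thus fell mainly in this week, with T7-RA at 741 ± 56.4 CPM (SD, n = 3) and T14-RA at 447 ± 3.07.

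Of the 12 genes called for no term, 7 had fewer than 100 counts in all libraries together, so that no more than large changes could have been detected. Col4a4, a type IV chain of the kidney filter, had no count at T0, 0, 0 and 1 counts at T7-RA and 0, 0 and 1 at T14-RA. With RA it had 2, 2 and 1 counts at day 7 and 7, 5 and 8 at day 14. All T14+RA libraries thus lay above all others, at least 1.81-fold above T0 when each T0 library is set to 3 counts, and the RA term missed the threshold (edgeR adjusted p = 0.00203). Without T7-RA 3 it passed, at an edgeR adjusted p of 0.000959. Col4a4 held 27 counts in all, 20 of them at T14+RA, so it passed the filter of more than 20 counts only through that group. Both its standing apart and its RA term depend on that filter. Col15a1, a multiplexin of muscle and vessels, had 7, 2 and 2 counts at T0, 5, 2 and 2 at T7-RA and 6, 0 and 1 at T14-RA. With RA it had a single count over all 6 libraries together. Col14a1, a fibril-associated chain, had 2, 0 and 0 counts at T0, 3, 1 and 6 at T14-RA and 10, 5 and 3 at T14+RA. Col20a1, Col26a1 and Col7a1, the chain of anchoring fibrils, had 69, 90 and 21 counts in all.

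Of 26 other genes listed for collagen secretion, folding and fibril assembly, 19 were in the table, and 4 were higher and 4 lower for T14, 1 higher and 4 lower with RA, beside 8.47% higher and 8.85% lower of all genes for T14 and 3.33% and 3.07% with RA. Fmod, which encodes the fibril-binding proteoglycan fibromodulin, stood at 11, 1.88 and 29.4 CPM at T0 and 404, 402 and 356 at T14-RA, and at 113, 132 and 109 at T14+RA. It thus lay between T0 and T14-RA at T14+RA. Fmod rose for T14 by 4.98 on the log2 scale (SE 0.41, 31.6-fold, edgeR adjusted p = 2.72e-07) and fell with RA by 2.08 on the log2 scale (SE 0.22, 4.24-fold, edgeR adjusted p = 9.44e-06). Its RA change was -3.02 (SE 0.24, edgeR adjusted p = 5.4e-14) at day 7 and -1.72 (SE 0.15, edgeR adjusted p = 1.79e-12) at day 14, and the difference of 1.30 (SE 0.31, edgeR adjusted p = 0.0221) passed the threshold of 0.05. This difference was lost without any one of T7-RA 3, T14-RA 3, T7+RA 1, 2 or 3 or T14+RA 1 or 2, where the changes were 1.11 to 1.36 (edgeR adjusted p up to 0.165), and also with the 3 limma fits, at limma adjusted p of 0.0666 to 0.735. Bgn, the related proteoglycan biglycan, fell with RA by 0.62 on the log2 scale (SE 0.069, 1.54-fold, edgeR adjusted p = 1.59e-10). Tmem38b, an endoplasmic reticulum cation channel needed for collagen modification, rose for T14 by 3.07 on the log2 scale (SE 0.27, 8.4-fold, edgeR adjusted p = 1.12e-13) and fell with RA by 0.88 on the log2 scale (SE 0.17, 1.84-fold, edgeR adjusted p = 6.62e-05). It lost the RA call without T14+RA 1, where the change was -0.77 (edgeR adjusted p = 0.00196), and also with DESeq2, limma-trend and limma on quantile-normalized values, with adjusted p of 0.00143 to 0.121 by these tools. Creb3l1, a transcription factor for collagen secretion, fell for T14 by 1.06 on the log2 scale (SE 0.14, 2.09-fold, edgeR adjusted p = 5.7e-09). Decorin (Dcn) had 0, 0 and 0 counts at T0, 47, 24 and 31 at T14-RA and 100, 98 and 60 at T14+RA, and lumican (Lum) had 0, 0 and 0, 25, 17 and 15 and 7, 3 and 4. Both were called higher for T14, and with RA Dcn was called higher and Lum lower.

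In upstream sequence, no motif searched was in a larger share of the set than of all windows. RefSeq windows of 250 bases before the start were found for 36 of the 43 genes and were searched on both strands. CCAAT was present in 8 of 36 (22.2%) and in 34.3% of all 27457 windows, and TATAAA in 1, Col10a1, against 13.1%. Of the half-sites of RA receptors, AGGTCA was present in 4 (Plod1, Plod3, Col7a1 and Col4a4) against 13.7%, and AGTTCA in 1 (Col26a1) against 12.1%. The DR5 elements, direct repeats of either half-site 5 bases apart that contain it by construction, were in none of the 36 and in 0.0109% of all windows for each half-site. Of the 7 genes higher with RA that have a window, none holds AGGTCA or AGTTCA. Among the 6 lower with RA that have one, AGGTCA was in 1 (Plod1) and AGTTCA in none. By position, the 43 genes lie in 30 bands of the deposited annotation, and 4 share band 5q36 (Plod1, P3h1, Col8a2 and Col16a1). Of these 4, Plod1 and Col8a2 were lower with RA, beside 7 of the 43 and 3.07% of all genes. Whether position bears on the RA changes was not tested.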

How the data were processed

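Total RNA of 15 H9c2 cultures was sequenced with a strand-specific mRNA kit as 2 reads of 75 bases. The authors trimmed the reads on Galaxy, mapped them with HISAT2 to the rat genome (Rnor_6.0 in the submitters' processing notes) and obtained gene counts from featureCounts. Raw counts were deposited, without scaling, for genes with more than 20 counts in all libraries, and the smallest sum is 21. Neither the annotation release nor how counting treated strand is given in the sources used here, so reads of overlapping antisense genes cannot be told apart. Groups came from the sample labels. No pair of libraries in a group agreed within sampling noise (smallest chi-square per gene 1.07, p = 2.31e-07). The T0 pairs were the most variable, at 2.06 to 3.09 per gene, and the other pairs ran from 1.07 to 2.04. The cultures are the study's biological replicates.

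Counts were fitted over all 11574 genes with edgeR 4.0.16 (R 4.3.3): TMM scaling, robust quasi-likelihood F test, terms T7, T14 and RA as in the study's formula, and a second fit with 5 group means for single days. The common biological coefficient of variation was 9.81%. Adjusted p are Benjamini-Hochberg over all genes. CPM use TMM library sizes, and SDs are over 3 cultures. The 43 genes, the lists of other genes and the tests were chosen with earlier results of these data known. Genes given in full were the abundant fibrillar and type IV chains, Lox, Serpinh1 and the 10 largest called changes for T14 and for RA, with Col12a1 and Col8a1 added after their values were seen. Alternatives were DESeq2 1.42.0, limma 3.58.1 (voom, trend, and quantile-normalized log2(count + 1)), RLE and plain library-size scaling, 2 count filters, a replicate block, other thresholds and each library left out. Promoter windows are RefSeq, GRCr8, and Rnor_6.0 coordinates were not used.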

Additional observations from a re-analysis of the deposited data

Results flagged for a closer look

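Fmod, a pathway gene outside the 43, had an RA change that differed between the days in a direct test. On the log2 scale the change at day 14 minus that at day 7 was 1.30 (edgeR adjusted p = 0.0221), and at each day all 3 cultures with RA lay below all 3 without. The difference also passed with DESeq2, but not with limma-voom, at 1.25 (limma adjusted p = 0.0666), or limma-trend, at 1.16 (limma adjusted p = 0.482).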

How the results depend on the processing

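Each group held 3 cultures read as a single line, T0 differs from the later groups in serum, and counts near 10 per library leave only large changes within reach. In all, 88 changes of the 43 genes were called over the 7 comparisons. None was lost with RLE scaling, a filter by group or a replicate block, 7 with plain library sizes, 8 with limma-voom, 12 with DESeq2, 15 with limma-trend, 6 of the 82 left by a minimum of 10 counts in every library, and 27 in at least 1 fit with a library left out. Quantile-normalized log2 counts lost 56 and took 2 more to zero or past it, and the numbers called were then 1 for T7, 11 for T14, 9 for RA, 3 for RA at day 7, 6 for RA at day 14 and 1 for T14-RA against T7-RA. There the Col1a1 change became 0.00 for T14, by construction, since quantile normalization gives the top gene of every library the same value, and the RA change of Col3a1 at day 14 became 0.07. At an adjusted p under 0.05 the numbers were 23 for T7, 24 for RA, 18 for RA at day 14 and 15 for T14-RA against T7-RA.

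Leaving out a library gave 10 to 17 genes for T7, 19 to 25 for T14, 12 to 15 for RA, 10 to 15 for RA at day 7, 8 to 13 for RA at day 14, 6 to 11 for T14-RA against T7-RA, and 0 to 2 for the difference of the RA change between the days. Replicate numbers do not pair the cultures (correlation of same-numbered libraries -0.035 to 0.099), and a replicate block gave 2 genes for that difference, Col8a1 at -0.55 (edgeR adjusted p = 0.0216) and Col12a1 at 0.65 (edgeR adjusted p = 0.00329). The block gave 13 genes for RA at day 14, Serpinh1 among them at 0.36 (edgeR adjusted p = 0.000256), 16 for T7 and 11 for T14-RA against T7-RA, and ended no call. With plain library sizes the median of all genes shifted to 0.13 for T7 and 0.15 for T14, and the 43 genes were called 2 higher and 8 lower for T7 and 4 higher and 19 lower for T14.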
